A study of Mus musculus with 12 samples.

Results

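The RAS, RAF, MEK and ERK cascade was followed at the transcript level in C790 mouse melanoma cells that were treated with trametinib, an inhibitor of the kinases MEK1 and MEK2. The set comprised 7 genes chosen by name: Nras and Hras (RAS GTPases), Braf (a RAF kinase), Map2k1 and Map2k2 (MEK1 and MEK2), Mapk3 (ERK1) and Map3k8 (a kinase outside the RAF family that also phosphorylates MEK). A gene was measured where at least 1 probe set, a group of short probes that reads 1 transcript region, was annotated to it and to no other gene. This held for 5 of the 7 (Nras, Braf, Map2k1, Map2k2 and Map3k8), which had 16 of the 34945 such probe sets and were 5 of 18193 genes. Hras and Mapk3 are not analysed here. Where a gene had several probe sets, the one whose average over the arrays was highest stands for the gene, and the others are given beside it.

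Total RNA of 12 samples, 3 in each of 4 groups, was measured on Affymetrix mouse expression arrays. All groups were C790 cells, an Nras-mutated line, that carried both lentiviral vectors, one for doxycycline-inducible Oct4, Sox2 and Klf4 with a blasticidin resistance gene and one for the constitutive transactivator with mCherry. Control cells (−dox) had no doxycycline, and partially reprogrammed cells (+dox) had it up to day 20, in a medium that contained LIF. Each state then had 72 h of DMSO or of trametinib, so that the groups were −dox DMSO, −dox trametinib, +dox DMSO and +dox trametinib. The trametinib dose of the arrays is not given in the sources used here. The labels do not say whether the 3 arrays of a group were separate cultures, so the p-values measure the spread between these samples, which may be technical. The values are log2 intensities, and levels of different genes were not compared, since each probe set has its own scale.

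In this cascade, RAS proteins bound to GTP recruit and activate RAF kinases, RAF phosphorylates MEK, and MEK phosphorylates ERK, which then acts on transcription factors and on feedback inhibitors. Melanomas commonly carry activating mutations of NRAS or BRAF, and loss of ERK feedback after MEK inhibition is known to raise the activity of the upstream members. MAP3K8, also called COT or TPL2, phosphorylates MEK without RAF and is known as a route of resistance to RAF inhibition in melanoma cells. The arrays read transcript levels, not the phosphorylation through which the cascade signals, and do not separate the mutant from the other Nras allele.

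The question asked of each member was whether its transcript differed with trametinib in either cell state, with reprogramming under either treatment, or in its response between the states. In −dox cells 3 of the 5 measured members rose with trametinib (Braf, Map2k1 and Map3k8) and 0 fell, where 22.4% of all genes were called (11.6% higher and 10.8% lower). In +dox cells 2 of 5 rose (Braf and Map3k8) and 0 fell, against 26.2% of all genes (13.8% higher and 12.5% lower). Of the 5 members 0 were called between +dox and −dox cells under DMSO (6.15% of all genes) or under trametinib (3.37%), and 0 for the difference between the trametinib responses (0.33%). At an unadjusted p under 0.05 these 3 counts were also 0, where 20.2%, 14.4% and 11.6% of all genes passed. A gene was called at a Benjamini-Hochberg adjusted p under 0.05 from limma over all 18193 genes.

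One array stood apart before any test. The −dox DMSO replicate 1 correlated with the other arrays of its group at r = 0.959 to 0.961, where these correlated with each other at 0.997, and where arrays within the other groups gave 0.987 to 0.994. It had 5230 probe sets more than 1 log2 unit from the mean of the other arrays of its group. The same count was 1851 and 1648 for replicates 2 and 3 of that group, whose reference held this array. For the arrays of the other groups it was 223 to 1000. Its 3′ minus 5′ difference of Actb, a sign of RNA quality, was 0.31, against 0.06 to 0.15 elsewhere. That of Gapdh set it apart less, at −0.10 against −0.25 to −0.12. Among 8 melanocyte genes, Mitf, Pmel and Sox10 were above the background level of 4.87, while the pigment genes Tyr, Tyrp1, Dct, Mlana and Slc45a2 were under it in all 4 groups. With trametinib 1 of the 8, Mitf, rose in +dox cells (log2 change 1.22), where 13.8% of all genes were called higher. In −dox cells Mitf changed by 0.83 without a call (adjusted p = 0.058). With dox 0 of the 8 were called under either treatment. The probe set of Sox2 read 6.48 to 8.07 in −dox DMSO and 5.51 to 6.46 in +dox DMSO cells, lower where the factor was to be induced. The probe set of Pou5f1, which encodes Oct4, was higher there, at 4.3, 4.73 and 4.87 in −dox DMSO and 5.55, 5.34 and 5.46 in +dox DMSO cells. The first of the pair of Klf4 probe sets, 8.90 to 9.81 and 9.16 to 9.46, overlapped. Whether these probe sets read the vector copies is not known.

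Trametinib lowered the transcriptional output of the cascade in both states. Of 10 genes that ERK is known to induce, 9 fell in −dox cells (median log2 change −3.30) and 9 in +dox cells (median −3.14), and 0 rose in either state, where 10.8% and 12.5% of all genes were called lower. Dusp6, the phosphatase of ERK that ERK induces, read 11.97, 11.98 and 12.24 in −dox DMSO and 3.68, 3.75 and 4.42 in −dox trametinib cells. In +dox cells it read 11.68 to 12.04 with DMSO and 4.81 to 5.24 with trametinib. These values do not overlap, and the −dox trametinib arrays were all under the background level. Under trametinib 4 of the 10 were higher in +dox than in −dox cells, where 3.37% of all genes were called in either direction. Ccnd1, a cyclin of the G1 phase, was higher by 1.5 (adjusted p = 0.0038) and Spry2, an inhibitor of the pathway, by 1.06 (adjusted p = 0.011). The other two were Dusp6 (adjusted p = 0.018), whose −dox group was under the background level, and Spry4 (adjusted p = 0.027), whose means were under it in both groups. Under DMSO Spry4 was higher by 1.18 (adjusted p = 0.048) in +dox cells and the receptor gene Epha4 fell by 2.01 (adjusted p = 0.033). The difference between the trametinib responses was called for 0 of the 10.

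The 250 bases before the transcript start are shown for the 4 members with an entry in the RefSeq promoter table (build GRCm38.p6). Braf and Map2k1 rose with trametinib in −dox cells, while Nras and the probe set used for Map2k2 did not pass the test. The other Map2k2 probe set, 1460636_at, rose there by 0.49 (adjusted p = 0.045). Each is written 5′ to 3′ toward the gene. Capitals mark TGACGT, the core of the site bound by CREB and ATF factors, and CACGTG, the E-box that MITF and MYC bind, on either strand. The windows are chr3:103058035-103058284, plus strand (Nras), chr6:39725464-39725713, minus strand (Braf), chr9:64253606-64253855, minus strand (Map2k1) and chr10:81105665-81105914, plus strand (Map2k2).
Nras: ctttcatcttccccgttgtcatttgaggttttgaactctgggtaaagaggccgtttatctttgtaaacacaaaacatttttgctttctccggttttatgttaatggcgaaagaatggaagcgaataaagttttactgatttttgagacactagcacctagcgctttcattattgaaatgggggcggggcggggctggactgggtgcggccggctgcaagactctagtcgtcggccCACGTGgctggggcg
Braf: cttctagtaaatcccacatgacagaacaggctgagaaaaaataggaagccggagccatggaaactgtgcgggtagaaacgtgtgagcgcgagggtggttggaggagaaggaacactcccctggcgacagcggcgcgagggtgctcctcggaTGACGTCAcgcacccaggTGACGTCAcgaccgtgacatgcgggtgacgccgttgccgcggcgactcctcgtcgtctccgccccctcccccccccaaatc
Map2k1: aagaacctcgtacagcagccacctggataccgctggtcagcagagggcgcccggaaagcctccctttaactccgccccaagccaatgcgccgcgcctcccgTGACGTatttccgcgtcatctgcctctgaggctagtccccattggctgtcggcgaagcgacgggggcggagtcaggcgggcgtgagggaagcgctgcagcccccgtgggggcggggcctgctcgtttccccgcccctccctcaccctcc
Map2k2: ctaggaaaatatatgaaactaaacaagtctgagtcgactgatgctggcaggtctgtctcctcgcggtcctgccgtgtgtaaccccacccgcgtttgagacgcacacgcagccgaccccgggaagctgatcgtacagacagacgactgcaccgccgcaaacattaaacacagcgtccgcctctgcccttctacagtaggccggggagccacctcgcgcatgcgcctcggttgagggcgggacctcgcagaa

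The Braf window held 2 copies of the full palindrome TGACGTCA, and 1.55% of the 32851 promoters of the same length held at least 1. Each palindrome contains the core TGACGT on both strands. Map2k1 held 1 core and no palindrome, and 6.47% of promoters held at least 1 core. Nras held 1 E-box, found in 6.02% of promoters. Map2k2 held neither motif. Both strands were searched for further motifs, of which AP-1 (TGANTCA, in 6.75% of promoters) had no match in these 4 windows. The ETS motif CCGGAA (in 12% of promoters) had 1 match in Map2k1, and the FOXO motif GTAAACA (in 3.17%) had 1 in Nras. The GC box GGGCGG (in 32.7%) was found in all 4 windows, and the CCAAT box (in 33.8%) in that of Map2k1. A match is a description of the letters and no evidence of binding, and its relation to the changes with trametinib was not tested.

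Nras, the RAS gene that is mutated in this line, had similar levels with and without the drug. It read 10.21, 10.68 and 10.59 in −dox DMSO cells and 10.30, 10.63 and 10.57 in −dox trametinib cells, ranges that overlap almost completely. In +dox cells it read 10.62, 10.93 and 10.85 with DMSO and 10.73, 10.83 and 10.71 with trametinib. The log2 change with trametinib was 0.0067 in −dox (95% interval −0.30 to 0.32, adjusted p = 0.98) and −0.043 in +dox cells (−0.35 to 0.27, adjusted p = 0.88). The −dox change was −0.044 after a further quantile normalisation. These p-values do not show that the levels were alike. The +dox arrays were somewhat higher: by 0.31 under DMSO (−0.0037 to 0.62, adjusted p = 0.25), where the arrays overlap, or 0.17 when the array that stood apart is left out, and by 0.26 under trametinib (−0.054 to 0.57, adjusted p = 0.47), where they do not, as for 9.45% of all genes in that direction. Of the other Nras probe sets, 1422687_at ranged in mean from 10.32 to 10.57 and 1422688_a_at from 8.55 to 9.20 over the groups, and neither was called in any comparison.

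Braf, the RAF kinase of the set, rose with trametinib in both states. It read 10.02, 9.67 and 9.70 in −dox DMSO cells and 10.25, 10.57 and 10.66 in −dox trametinib cells. In +dox cells it read 10.15, 10.04 and 10.11 with DMSO and 10.71, 10.42 and 10.74 with trametinib. In each state the lowest trametinib array was above the highest DMSO array, as for 20.4% of all genes in −dox and 22.1% in +dox cells. The log2 change was 0.70 (standard error 0.14, adjusted p = 0.0043) in −dox and 0.52 (standard error 0.14, adjusted p = 0.016) in +dox cells, or 1.62-fold and 1.44-fold. The responses of the states differed by −0.17 (−0.61 to 0.26, adjusted p = 0.80), and by −0.285 when −dox DMSO replicate 1 is left out. The +dox call was near its limit: leaving out replicate 2 of +dox DMSO gave an adjusted p of 0.055, and leaving out replicate 1 or 3 of +dox trametinib gave 0.063 or 0.062. It also ended with each array centred on its median (log2 change 0.47, adjusted p = 0.057).

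Braf did not pass the test between the cell states. Under DMSO the +dox arrays were 0.30 higher (−0.0025 to 0.61, adjusted p = 0.25), and the lowest of them, 10.04, was just above the highest −dox array, 10.02. For 11.3% of all genes the +dox arrays lay wholly above the −dox arrays. The −dox value of 10.02 was that of replicate 1, the array that stood apart. Under trametinib the states differed by 0.13 (−0.18 to 0.44, adjusted p = 0.80) and their arrays overlap.

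**Figure D1:**
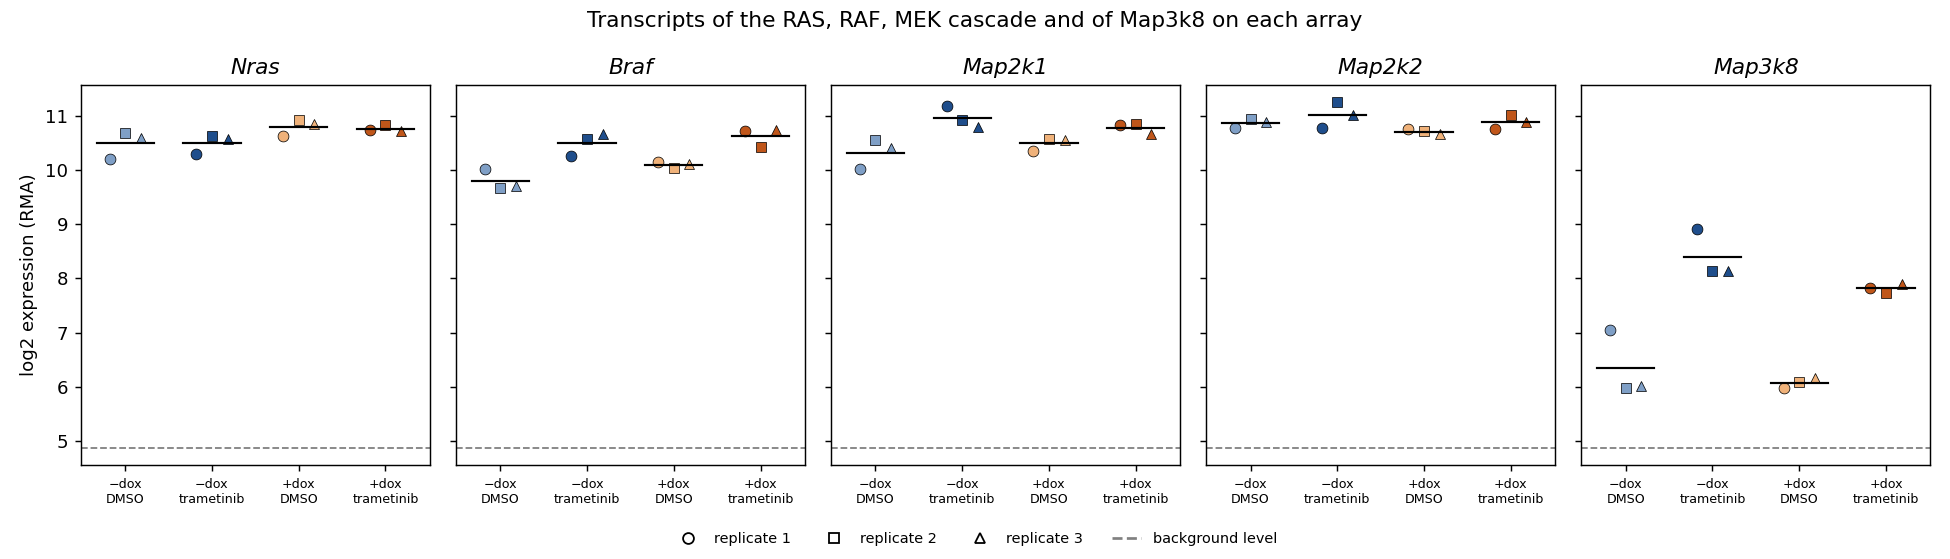
Log2 expression (vertical axis, RMA) of the 5 measured members on each of the 12 arrays, with 1 point per array, a shape per replicate number, short lines at the group means and a dashed line at the background level of 4.87. Map3k8 runs from 5.97 to 8.91 and is higher with trametinib in both states, Braf is also higher with it, and the arrays of Nras lie between 10.21 and 10.93.

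The 9 probe sets of Braf did not all read the same response. In −dox cells 4 of 9 rose with trametinib and 0 fell, where 10.6% of all probe sets were called higher. These were 1425693_at (log2 change 1.04, adjusted p = 0.0012), 1435434_at, used for the gene, 1447941_x_at (0.69, adjusted p = 0.034) and 1447940_a_at (0.64, adjusted p = 0.045). The other 5 had changes from −0.52 to 0.60. In +dox cells only 1435434_at passed, of 11.8% of all probe sets called higher, and the 9 changes ran from −0.24 to 0.52. The mean of the 9 probe sets gave changes of 0.39 (adjusted p = 0.40) in −dox and 0.25 (adjusted p = 0.63) in +dox cells, and neither passed.

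The −dox DMSO replicate 1 had much higher values than its group on several of these probe sets. It lay above the mean of replicates 2 and 3 by 3.16 on 1442749_at, by 2.42 on 1445786_at, by 2.31 on 1456505_at and by 1.62 on 1435480_at, but below it on 1425693_at, where it read 5.56 against 5.99 and 6.20. Without this array, an alternative chosen after the data were seen, 7 of the 9 probe sets rose with trametinib in −dox cells and all 9 changes were positive, from 0.28 to 1.19, where 9.53% of all probe sets were called higher. The probe sets 1442749_at and 1445786_at did not pass either way. The part that RNA quality has in these values was not tested. Between +dox and −dox cells under DMSO, 1425693_at rose by 0.67 with all arrays (adjusted p = 0.041, where 2.1% of all probe sets were called higher) and changed by 0.49 without this one (adjusted p = 0.058).

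**Figure D2:**
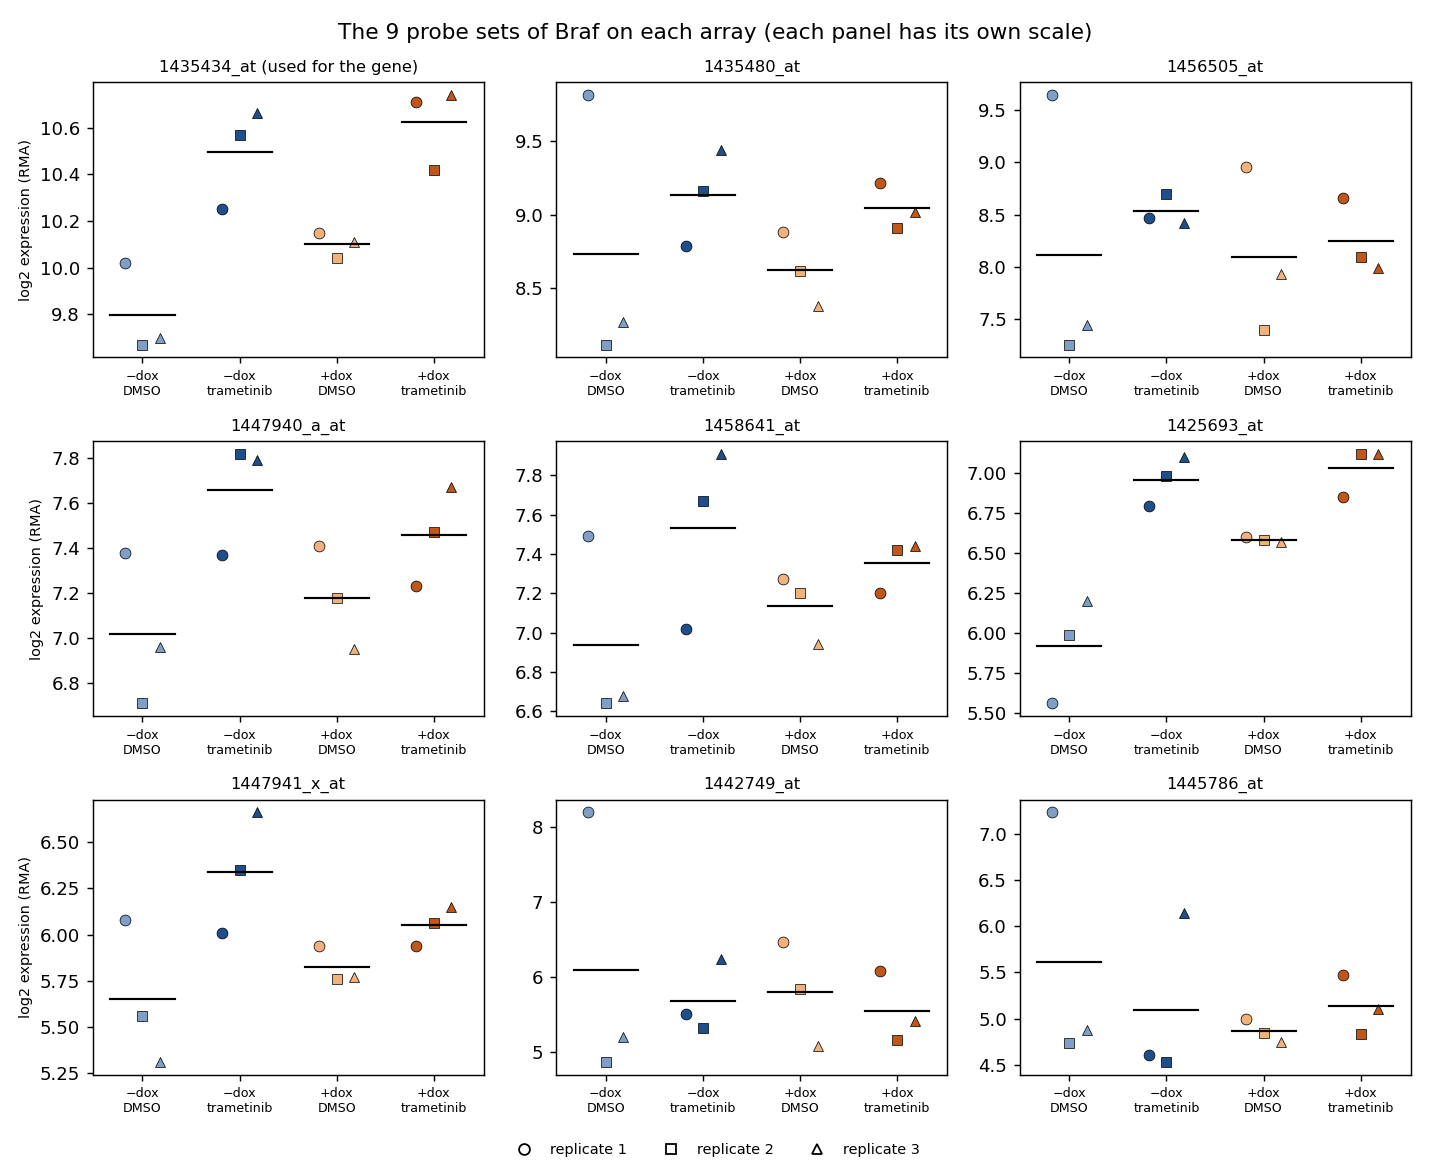
Log2 expression (vertical axes, RMA, a scale of its own in each panel) of the 9 Braf probe sets on the 12 arrays, with 1 point per array, a shape per replicate number and lines at the group means. The −dox DMSO replicate 1 (first circle) lies far above its group on 1442749_at, 1445786_at, 1456505_at and 1435480_at, and the trametinib arrays are above the DMSO arrays in both states on 1435434_at and 1425693_at.

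Map2k1, which encodes MEK1, a direct target of trametinib, rose with the drug in −dox cells. It read 10.01, 10.55 and 10.40 in −dox DMSO and 11.18, 10.93 and 10.79 in −dox trametinib cells, with no overlap. In +dox cells it read 10.35, 10.58 and 10.56 with DMSO and 10.83, 10.85 and 10.67 with trametinib, again with no overlap but a smaller distance. The trametinib arrays lay wholly above the DMSO arrays for 20.4% of all genes in −dox and 22.1% in +dox cells. The log2 change of Map2k1 was 0.65 (standard error 0.15, adjusted p = 0.0096), or 1.57-fold, in −dox cells and 0.29 (−0.041 to 0.61, adjusted p = 0.20) in +dox cells. The difference between these responses was −0.36 (−0.82 to 0.10, adjusted p = 0.56), so the rise was not shown to be particular to −dox cells. The −dox array that stood apart was the lowest of all 12, and without it the −dox change was 0.49 and still called, and the difference between responses was −0.205. With only the 6 arrays of the comparison in the fit, the adjusted p was 0.052. Between the states Map2k1 differed by 0.18 under DMSO (adjusted p = 0.59), or 0.022 when the same array is left out, and by −0.18 under trametinib (adjusted p = 0.70).

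Map2k2, which encodes MEK2, the other target of the drug, varied least of the 5 measured members over the arrays. Its highest probe set, 1415974_at, read 10.78, 10.94 and 10.88 in −dox DMSO and 10.77, 11.25 and 11.01 in −dox trametinib cells. It read 10.75, 10.71 and 10.66 in +dox DMSO and 10.76, 11.02 and 10.88 in +dox trametinib cells. There the trametinib arrays lay just above the DMSO arrays without overlap, as for 22.1% of all genes. The log2 changes with trametinib were 0.14 (−0.13 to 0.41, adjusted p = 0.46) in −dox and 0.18 (−0.090 to 0.45, adjusted p = 0.35) in +dox cells, and their difference was 0.037 (−0.35 to 0.42, adjusted p = 0.96). The +dox arrays were 0.16 lower than the −dox arrays under DMSO without overlap, as for 11.1% of all genes, but the change did not pass (adjusted p = 0.54), nor did that of −0.12 under trametinib (adjusted p = 0.78). The second probe set, 1460636_at, rose by 0.49 with trametinib in −dox cells (adjusted p = 0.045) and changed by 0.35 in +dox cells (adjusted p = 0.13). Without −dox DMSO replicate 1 its −dox change was 0.44 and no longer passed (adjusted p = 0.097).

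Map3k8, the MEK kinase outside the RAF family, had the largest change of the 5 measured members. It read 7.04, 5.97 and 6.01 in −dox DMSO cells and 8.91, 8.14 and 8.13 in −dox trametinib cells. In +dox cells it read 5.98, 6.08 and 6.17 with DMSO and 7.82, 7.73 and 7.90 with trametinib. Every trametinib array was above every DMSO array. Within a state the same was true of 20.4% of all genes in −dox and 22.1% in +dox cells. The 3 Map3k8 values of each +dox group lay close together. The log2 change was 2.05 (1.45 to 2.66, adjusted p = 4.4e-04) in −dox and 1.74 (1.14 to 2.34, adjusted p = 8.1e-04) in +dox cells, or 4.15-fold and 3.34-fold. Both calls held under all 22 alternatives tried, over which the change ran from 1.80 to 2.40 in −dox and from 1.69 to 1.79 in +dox cells. Replicate 1 was the highest array in both −dox groups, and without −dox DMSO replicate 1 the −dox change was 2.40.

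The Map3k8 response did not pass as different between the states (−0.31, −1.17 to 0.54, adjusted p = 0.82), and it ran from −0.66, without −dox DMSO replicate 1, to −0.055, without −dox trametinib replicate 1, with no call. Under trametinib the +dox arrays were all lower than the −dox arrays, by 0.58 (−1.18 to 0.026, adjusted p = 0.38), as were those of 10.6% of all genes. Under DMSO the change with dox was −0.26 (−0.87 to 0.34, adjusted p = 0.68), and without −dox DMSO replicate 1 it was 0.087. The spread of Map3k8 over the 12 arrays (SD 1.07) was at the 96.4th percentile of all genes. Braf was at the 72nd, Map2k1 at the 63.9th, Nras at the 45.9th and Map2k2 at the 31.7th percentile.

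**Figure D3:**
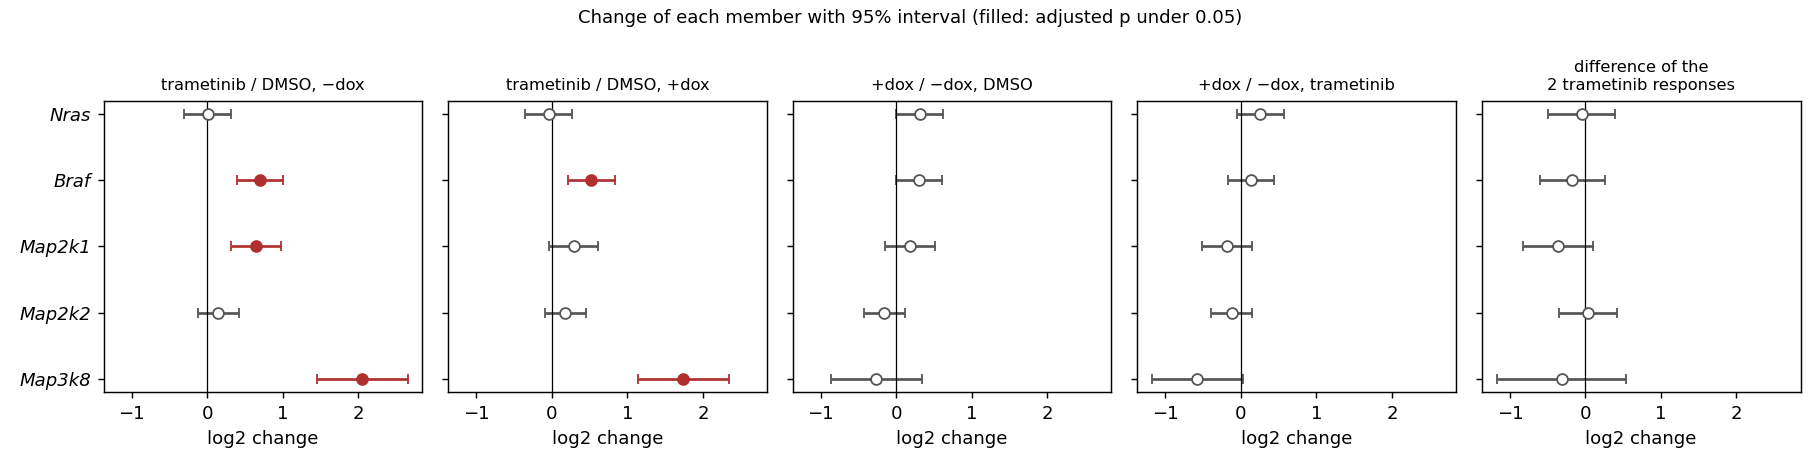
Log2 change (horizontal axes) of the 5 measured members in the 4 comparisons between groups and in the difference between the trametinib responses, with 95% intervals from limma and filled points where the adjusted p is under 0.05. Filled points are Braf, Map2k1 and Map3k8 with trametinib in −dox cells and Braf and Map3k8 in +dox cells, and the intervals of the 3 other panels all reach 0.

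Over the 5 measured members the median log2 change with trametinib was 0.65 in −dox and 0.29 in +dox cells, where it was 0.06 and 0.023 over all genes. With dox it was 0.18 under DMSO and −0.12 under trametinib, and 0.013 and −0.017 over all genes. Centring each array on its median moves every gene by 0.13 in the −dox trametinib comparison, by −0.18 in the difference of responses, by 0.093 and −0.09 with dox under DMSO and under trametinib, and by −0.05 for trametinib in +dox cells. Fibroblast genes moved with both drug and dox: 3 of 5 (Col1a1, Pdgfra and Dcn) were above the background level and Col1a2 and Thy1 under it in all groups. The mean of the 5 per array was 6.85 to 7.14 in −dox DMSO, 7.32 to 7.52 in −dox trametinib, 5.53 to 5.86 in +dox DMSO and 6.71 to 6.82 in +dox trametinib cells. The genes did not all move one way. In −dox cells Col1a1 rose with trametinib by 1.37 (adjusted p = 0.0073) and Dcn by 1.45 (adjusted p = 0.025), while Pdgfra fell by 0.96 (adjusted p = 0.030). In +dox cells Col1a1 rose by 1.94 (adjusted p = 0.00073) and Dcn by 3.33 (adjusted p = 0.00016), and the change of Pdgfra was −0.087 (adjusted p = 0.88). With dox under DMSO all 3 fell, by 2.3, 2.23 and 2.07 for Col1a1, Dcn and Pdgfra. Of 4 leukocyte genes 1 or 2 were above the background level in a group. Cd3e was above it in all groups, and Ptprc and Adgre1 were under it in all. With dox under DMSO the changes of Ptprc (−0.13), Adgre1 (0.097) and Cd3e (0.20) were not called. Cd3e rose by 0.35 with trametinib in −dox cells (adjusted p = 0.034). Itgam, which encodes an integrin of myeloid cells, read 2.97, 3.21 and 3.26 in −dox DMSO, all under the background level, and 4.19, 6.90 and 5.72 in +dox DMSO cells (adjusted p = 0.014), and fell by 1.88 with trametinib in +dox cells (adjusted p = 0.013). The part of the fibroblast and leukocyte genes in the members' changes was not tested. In a group 1 or 2 of 3 keratinocyte and epithelial genes and 1 of 3 endothelial genes were above the background level.

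The 5 genes whose pattern over the 12 arrays was nearest to that of Map3k8 were picked by the root mean square difference of log2 values centred on each gene's mean, among 11983 genes above background. They were Ahnak2 (difference 0.30), the zinc exporter Slc30a1 (0.31), Tmem150a (0.31), the death receptor Fas (0.32) and the metallothionein Mt1 (0.33). With trametinib Fas was higher by 1.67 in −dox and 1.76 in +dox cells, Slc30a1 by 1.73 and 1.94, and Mt1 by 1.30 and 1.54. These values describe the match by which the genes were picked and carry no test.

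Other genes of the pathway were counted in 8 lists with 77 measured genes. With trametinib 10 rose and 9 fell in −dox cells, or 24.7%, near the 22.4% of all genes. In +dox cells 13 rose and 8 fell, or 27.3%, near the 26.2% of all genes. Of the called genes 4 rose in both states (Grb2, Rasal2, Shoc2 and Lamtor3), 5 fell in both (Shc1, Rasa3, Cnksr1, Cdc37 and Mapk12, of which Cnksr1 was under background throughout), and 0 went opposite ways. Of all 18193 genes 1388 rose in both states, 1406 fell in both and 10 went opposite ways. Leaving out replicate 3 of −dox DMSO made the −dox count 12 and not 19, and leaving out replicate 3 of −dox trametinib made it 8. The +dox count of 21 fell to 13 without replicate 3 of +dox DMSO.

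Of 7 other genes of the cascade itself, 1 rose in −dox cells and 1 rose and 1 fell in +dox cells. The shares of all genes called were 22.4% and 26.2%. Rras2, a RAS-related GTPase, rose by 0.95 in −dox cells (adjusted p = 0.032), but replicate 1 of −dox DMSO and replicates 1 and 3 of −dox trametinib were each needed for the call (adjusted p up to 0.11). Mras, a RAS-related GTPase that works with Shoc2 in RAF activation, rose by 1.16 in +dox cells (adjusted p = 0.0078). Ksr1, a scaffold that holds RAF, MEK and ERK together, fell by 0.67 in +dox cells (adjusted p = 0.0096). Araf, a further RAF kinase, changed by 0.48 in −dox (adjusted p = 0.12) and 0.12 in +dox cells (adjusted p = 0.74).

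Among 12 adaptors and exchange factors upstream of RAS, 3 rose and 2 fell in −dox cells, and 2 rose and 1 fell in +dox cells. The same test called 22.4% and 26.2% of all genes. Gab2, a docking protein of receptor signalling, read 8.63, 8.69 and 8.87 in −dox DMSO and 10, 9.58 and 9.83 in −dox trametinib cells, a rise of 1.07 (adjusted p = 5.6e-04). In +dox cells it was high in both treatments (9.37 to 9.95 and 9.91 to 9.96). Gab1, its relative, rose by 1.15 in +dox cells (adjusted p = 0.0016). Shc1, an adaptor of receptor tyrosine kinases, fell by 0.85 in −dox (adjusted p = 0.0035) and 0.55 in +dox cells (adjusted p = 0.027). Grb2, which brings the exchange factor SOS to receptors, rose by 0.37 (adjusted p = 0.035) and 0.38 (adjusted p = 0.025). Ptpn11, the phosphatase SHP2, rose by 0.49 in −dox cells (adjusted p = 0.013), and Rasgrp3, an exchange factor, fell by 1.30 there (adjusted p = 0.019). The calls of Gab2, Gab1 and of Shc1 in −dox cells held with each array left out in turn, while those of Grb2, Ptpn11, Rasgrp3 and of Shc1 in +dox cells ended without at least 1 array.

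Of 9 GTPase activating proteins, which switch RAS off, 1 rose and 2 fell in −dox and 2 rose and 1 fell in +dox cells. Over all genes 22.4% and 26.2% were called. Rasa3 had the smallest p of the 77 genes in both states. It read 9.94, 9.94 and 10.05 in −dox DMSO and 8.06, 8.23 and 8.09 in −dox trametinib cells, and 9.75, 9.78 and 9.98 in +dox DMSO and 7.93, 7.89 and 7.71 in +dox trametinib cells. It fell by 1.85 (adjusted p = 3.6e-06) and 1.99 (adjusted p = 1.3e-06). Rasal2 rose by 0.83 (adjusted p = 0.0055) and 0.74 (adjusted p = 0.0076). Rasa4 fell by 1.22 in −dox cells (adjusted p = 0.027) and Rasa2 rose by 0.43 in +dox cells (adjusted p = 0.043), and each of these calls ended without at least 1 array.

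Of 13 scaffolds and modulators, 3 rose and 2 fell in −dox and 5 rose and 2 fell in +dox cells. Over all genes 22.4% were called in −dox and 26.2% in +dox cells (13.8% higher and 12.5% lower). Lamtor3, also called MP1, a scaffold of MEK1 and ERK1 on late endosomes, rose by 0.66 (adjusted p = 0.0013) and 0.59 (adjusted p = 0.0019). Shoc2, the scaffold of a phosphatase that activates RAF, rose by 0.74 (adjusted p = 0.022) and 1.05 (adjusted p = 0.0025), the first of these not without −dox trametinib replicate 2 or 3. Cdc37, which delivers kinases such as RAF to HSP90, fell by 0.52 (adjusted p = 0.0061) and 0.41 (adjusted p = 0.016), the second of which needed replicate 1 of +dox DMSO and replicate 2 of +dox trametinib. Pea15a, a cytoplasmic anchor of ERK named after its values were seen, changed by 1.35 in −dox cells without a call and rose by 1.48 in +dox cells (adjusted p = 0.046), a call that ended without any 1 of 7 arrays.

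The partners that hold MAP3K8 in check or release it did not pass. Tnip2, which binds MAP3K8 in its complex with p105, changed by −0.24 in −dox (adjusted p = 0.66) and 0.033 in +dox cells (adjusted p = 0.96). Ikbkb, the kinase that triggers release from p105, changed by −0.12 (adjusted p = 0.66) and −0.027 (adjusted p = 0.94). The array that stood apart read 9 for Tnip2, against 7.40 and 7.74 in its group. Nfkb1, which encodes p105, is not analysed here.

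Of 13 other MAP3 kinases, all with smaller changes upward than Map3k8, 1 rose and 2 fell in each state. The shares over all genes were 22.4% in −dox and 26.2% in +dox cells. Map3k6 fell by 1.39 (adjusted p = 7.4e-05) in +dox cells, Map3k20 fell by 1.72 (adjusted p = 1.3e-04), and Map3k7, also called TAK1, rose by 0.50 (adjusted p = 0.012). In −dox cells Map3k2 rose by 0.52 (adjusted p = 0.032), Map3k14 fell by 0.40 (adjusted p = 0.027) and Map3k5 fell by 0.97 (adjusted p = 0.049). The calls of Map3k2, Map3k14 and Map3k5 each ended without at least 6 of the 12 arrays in turn, and that of Map3k7 without +dox DMSO replicate 3.

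Of 16 MAP2 and MAP kinases of other branches, 1 rose and 1 fell in −dox and 2 rose and 1 fell in +dox cells. Among all genes 22.4% and 26.2% were called. Mapk12, a p38 kinase, fell by 1.17 (adjusted p = 0.014) and 1.61 (adjusted p = 0.0018). Map2k6, which activates p38, rose by 1.19 in +dox cells (adjusted p = 0.0098). Map2k4 rose by 0.30 in −dox (adjusted p = 0.036) and Nlk by 0.37 in +dox cells (adjusted p = 0.048), and these calls ended without at least 8 of the 12 arrays in turn. Of 5 kinases downstream of ERK, 0 were called in any comparison without the replicate number as a block. With it, Mknk1 was called with trametinib in +dox cells (0.27, adjusted p = 0.046) and Rps6ka5 with dox under trametinib (0.61, adjusted p = 0.033).

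**Figure D4:**
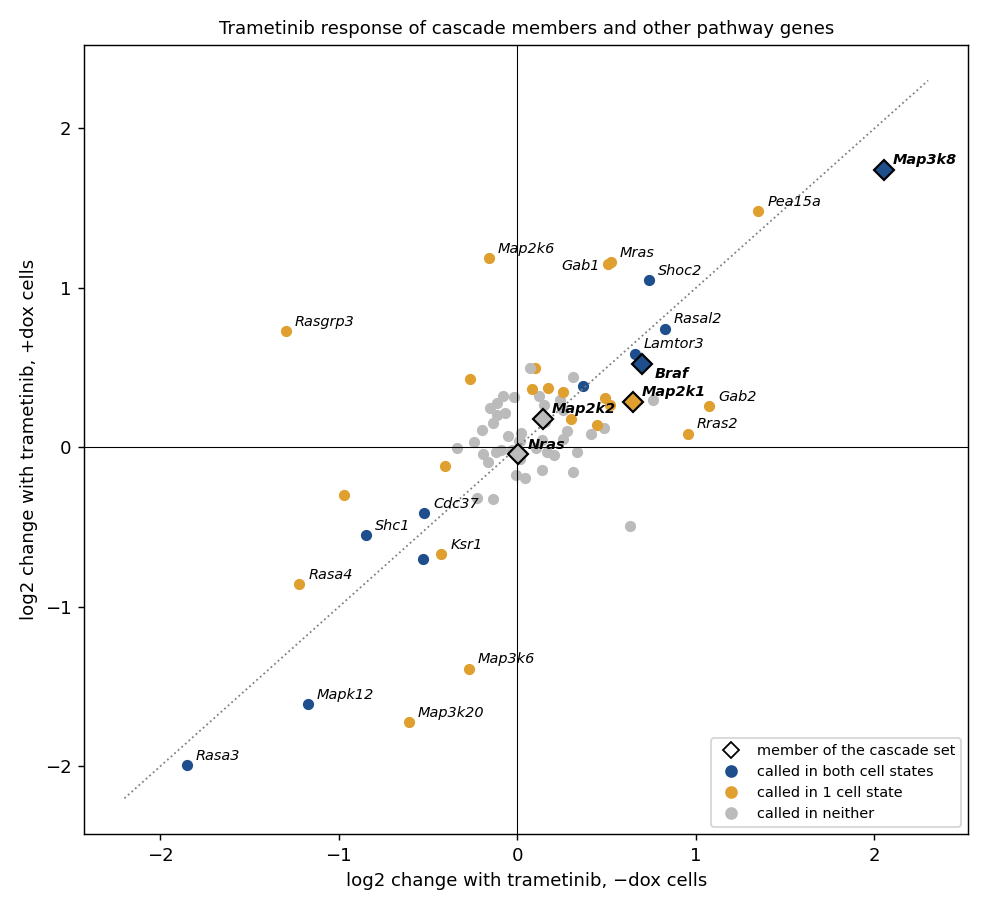
Log2 change with trametinib in −dox cells (horizontal axis) against +dox cells (vertical axis) for the 5 measured members (diamonds) and 77 other pathway genes (circles), coloured by whether the adjusted p was under 0.05 in both, 1 or neither state, with a dotted line of equal change. Map3k8 lies farthest to the upper right (2.05 and 1.74) and Rasa3 farthest to the lower left (−1.85 and −1.99).

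Under DMSO 2 of the 77 pathway genes rose with reprogramming and 5 fell, and under trametinib 0 rose and 2 fell, where 6.15% and 3.37% of all genes were called. Gab2 rose by 0.94 with dox under DMSO (adjusted p = 0.0052), a call that held with each array left out. Rras2 rose by 1.21 (adjusted p = 0.030) and Dab2ip and Rasa2, which inactivate RAS, fell by 0.49 (adjusted p = 0.022) and 0.60 (adjusted p = 0.030), calls that ended without at least 3 of the arrays in turn. Map3k7 fell by 0.66 and Map3k12 by 0.73 (adjusted p = 0.012 for each), the first not without +dox DMSO replicate 3 and the second not without replicate 2. With the replicate number as a block the count was 10 in place of 7, with Mapk6 (0.85, adjusted p = 0.0057), Map3k5 (−0.80, adjusted p = 0.044) and Rasgrp3 (−1.26, adjusted p = 0.047) added. The count of 7 under DMSO was 11 without +dox DMSO replicate 1, 2 without replicate 2 and 3 without replicate 3.

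Ksr1 was called with dox under both treatments. It read 7.61, 7.27 and 7.12 in −dox DMSO, 6.78, 7 and 6.94 in −dox trametinib, 6.72, 6.26 and 6.57 in +dox DMSO and 5.64, 5.84 and 6.06 in +dox trametinib cells. It was lower in +dox cells by 0.82 under DMSO (log2 change −0.82, adjusted p = 0.014) and by 1.06 under trametinib (log2 change −1.06, adjusted p = 0.0045), and the lowest values were those of +dox cells with the drug. The call under DMSO ended without +dox DMSO replicate 2 (adjusted p = 0.064). Map3k6 fell by 0.66 with dox under trametinib (adjusted p = 0.034), a call that ended without any 1 of 7 arrays. With the replicate number as a block, 4 pathway genes were called under trametinib: Ksr1 and Map3k6, and also Map3k20 (log2 change −0.73, adjusted p = 0.027) and Rps6ka5 (0.61, adjusted p = 0.033).

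For the difference between the trametinib responses 0 of the 77 pathway genes were called by limma, 9 had an unadjusted p under 0.05, and 1, Mapk6 (log2 difference −1.12, adjusted p = 0.038), was called with the replicate number as a block. The count was 4 when −dox DMSO replicate 1 was left out, and 2 when replicate 1 of −dox trametinib or of +dox DMSO was. Genes called in 1 state only, such as Gab1, Gab2 or Map2k6, were therefore not shown to respond differently with all arrays.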

How the data were processed

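The deposited values are log2 intensities that the authors obtained by RMA normalisation in Chipster, per probe set for 12 arrays. They were used as they are. Of 45101 probe sets, 64 controls, 9160 without a gene and 932 with several were left out. The background level, 4.87, is the 95th percentile of the means of 84 olfactory, vomeronasal and taste receptor probe sets. Low values were not filtered. Precision is limited by the number of arrays.

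Genes were fitted by lmFit and eBayes of limma 3.58.1 (R 4.3.3), as group means of the 12 arrays, with Benjamini-Hochberg adjustment over 18193 genes. The fit was tested on simulated data in which 200 of 18193 genes were changed. A log2 change of 1 was recovered for 75.5% to 80.5% of these between groups and for 50.5% in the difference between responses. For a log2 change of 0.5 these shares were 0.5% to 18.5% and 0%. The simulated noise was independent between arrays. In the data 4072 and 4772 genes were called with trametinib in −dox and +dox cells. The adjusted threshold is less strict where more genes change, so these shares do not describe recovery in the trametinib comparisons. The deviations of arrays with the same number from their group means correlated at r = 0.17 to 0.34 for dox under DMSO and 0.21 to 0.29 for dox under trametinib. For trametinib they correlated at 0.16 to 0.45 in +dox cells and 0.02 to 0.46 in −dox cells. The labels do not say that the numbers pair the arrays. The tests given did not pair them, except where the replicate number is named as a block.

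The members, lists and tests were chosen with earlier results of these data known. Named are all members with every probe set, at most 4 called genes per list and comparison by smallest p, Araf, the MAP3K8 partners and the 5 genes most like Map3k8. Further lists marked melanocytes, leukocytes, fibroblasts, keratinocytes or epithelium, and endothelium. Alternatives were the replicate block, only the compared arrays, the mean of probe sets, single probe sets, genes above background, quantile normalisation, median centring, array weights, a fold threshold of 2 and each array left out. Promoters came from RefSeq, and 4 of 5 genes matched. Figures were drawn with matplotlib 3.10.9.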

Additional observations from a re-analysis of the deposited data

How the results depend on the processing

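Where the highest probe set or the mean of its probe sets stood for a gene, no alternative turned the direction of a called member. Among single Braf probe sets with all arrays, changes with trametinib ran from −0.52 to 1.04 in −dox and −0.24 to 0.52 in +dox cells. Of these 9 probe sets 0 were called lower. The calls of Map3k8 with trametinib held under all alternatives in both states. Members called were 1, in place of 3 in −dox and 2 in +dox cells, when a fold change over 2 was also asked for, and 1 in +dox cells with the mean of all probe sets or with arrays centred on their median. In −dox cells the call of Braf ended with the mean of all probe sets (adjusted p = 0.40). That of Map2k1 ended there with only the compared arrays (adjusted p = 0.052). With 1 array left out they ranged from 3 to 3 in −dox and from 1 to 2 in +dox cells, and were 0 in the other comparisons. Array weights called 1 member, Braf, for dox under DMSO (log2 change 0.40, adjusted p = 0.011). With the replicate number as a block no member's call changed, and the genes called for the difference between responses were 141 in place of 60.

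Signs turned only for changes that were not called. For trametinib in −dox cells Nras was −0.044 with quantile normalisation and −0.049 with array weights, and −0.14 to 0.11 with 1 array left out. In +dox cells Nras was −0.13 to 0.022 with 1 array left out. Map3k8 with dox under DMSO was 0.084 with array weights and −0.45 to 0.087 with 1 array left out, and Braf with dox under trametinib −0.10 with the mean of probe sets. The difference between responses of Map2k2 was −0.048 with the mean of probe sets, −0.15 with centring and −0.083 to 0.16 with 1 array left out, and that of Nras was −0.15 to 0.092. The cause of these changes was not tested.

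Counts over all genes moved more. With array weights, genes called were 4086 in place of 1118 (dox under DMSO), 1427 in place of 614 (dox under trametinib), 7131 in place of 4072 (trametinib in −dox cells) and 1066 in place of 60 (difference between responses). With a fold change over 2 they were 475, 358 and 1384 in the first 3, and 1755 in place of 4772 for trametinib in +dox cells. With only the compared arrays, dox under DMSO gave 550. The difference between responses gave 36 with probe sets tested one by one, 25 with genes above background and 217 with centring, which turned the split from 47 higher and 13 lower to 49 higher and 168 lower. With 1 array left out the counts ran from 465 to 1297, 295 to 964, 2883 to 4144, 3605 to 5652 and 13 to 200, in the order dox under DMSO, dox under trametinib, trametinib in −dox, trametinib in +dox, difference. The low signal of Map3k8 under DMSO, 5.97 to 7.04 against a background of 4.87, limits how far a fall could have been seen.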
